A study of Homo sapiens with 4 samples.

Results

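Human chromosome 19 carries the densest collection of C2H2 zinc-finger genes in the genome, and its protein-coding genes named ZNF followed by a number were followed here in HCT116 cells, a human colorectal carcinoma line, after a hairpin RNA against WDR43. WDR43 is a nucleolar protein of the machinery that makes the small ribosomal subunit, and its own level was not analysed here. The genes were chosen by symbol and chromosome alone from GENCODE release 29 on GRCh38, a rule that uses no measured value. The annotation holds 249 such genes, and the 4 libraries give values for 222 of them among 29286 listed genes. The other 27 were not analysed here.

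The 4 RNA-seq libraries were 2 from cells with a control hairpin, written shNC2 in the sample titles and shNC here, and 2 from cells with the hairpin shWDR43. All of them were HCT116 cells that had been infected with lentivirus for 48 h and kept in puromycin for 3 days, and no untreated or uninfected cells were analysed here. Whether the libraries of a group stem from separate cultures is stated nowhere in the labels, and p-values therefore reflect the scatter among these 4 libraries, possibly a technical one. The labels name 1 hairpin against WDR43, in a single cell line, so an effect of the hairpin other than on its target cannot be told apart from an effect of the target.

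C2H2 zinc-finger proteins read DNA through tandem fingers, each a short fold that holds a zinc ion between 2 cysteines and 2 histidines. Many on chromosome 19 also carry a KRAB (Krüppel-associated box) domain, which binds TRIM28, also called KAP1, and through it brings in SETDB1, a histone H3 lysine 9 methyltransferase, and the HP1 proteins. The family grew by repeated tandem duplication, and many of its members are known to bind and silence transposable elements.

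Of the 249 genes, 248 had a coding sequence that could be translated, and the count of finger patterns in the protein ran from 0 to 36 with a median of 12. A KRAB A box pattern was found in 208 proteins and not in 40. The genes lay in 16 groups along the chromosome, numbered here in chromosome order, where a new group began after a gap of over 1 Mb between neighbours. The 7 groups with 10 or more genes held 228 of them, and the largest, group 16 (55.5 to 58.5 Mb), held 59.

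RefSeq (GRCh38.p14) gives a promoter window, from 250 bases before to 50 bases after the gene start, for 217 of the 249 genes. A window was searched on both strands for the ETS-type core CCGGAA, the E-box CACGTG, the CRE TGACGTCA, the NRF1 motif, the TATA box TATAAA and the GC box GGGCGG, each counted on its own even where matches overlapped. The core CCGGAA, which GABPA, ELF1, ELK1 and ELK4 are known to bind, was in 122 windows (56.2%). The same letters were in 22.7% of the windows of all other protein-coding genes, 22.3% of those of other protein-coding genes of chromosome 19, 45.5% of those of ZNF-numbered genes of other chromosomes and 17.6% of all 27305 windows of this length. TATAAA was in 1.84% of the windows of the chromosome 19 genes and in 9.48% of those of other protein-coding genes, and CACGTG in 4.15% and 9.01%. GGGCGG was in 68.2% and 59.3%. Of the CCGGAA matches in the chromosome 19 windows, 74.5% had their centre within 50 bases of the gene start, against 48.9% in other protein-coding genes, and the median distance was 15 bases before the start against 53.

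The motif TTCTGGGA was added after promoter sequences of group 12 (43.5 to 45.1 Mb) had been read. Its share in that group describes how it was chosen. The share over all 217 windows includes group 12, so its distance from other sets tests nothing. It is the core of an element that ZNF143 and THAP11 are known to bind. It was in 27 of the 217 windows (12.4%), against 2.62% of the windows of other protein-coding genes, 8.92% of those of ZNF-numbered genes of other chromosomes and 2.78% of all windows. Of the 27, 13 lay among the 20 windows of group 12, 6 among the 24 of group 9 and 3 among the 54 of group 16. Group 15 had it in 2 of 33 windows, and groups 2, 3 and 5 had it in 0. The 200 bases before the RefSeq gene start are printed for 6 neighbours of group 12, because these are the genes whose expression is described most closely. They lie at chr19:44164900-44165099 (plus strand) for ZNF226, chr19:44025179-44025378 (plus strand) for ZNF222, chr19:44002757-44002956 (plus strand) for ZNF230, chr19:44094161-44094360 (plus strand) for ZNF224, chr19:44113199-44113398 (plus strand) for ZNF225 and chr19:44305026-44305225 (minus strand) for ZNF235, on GRCh38.p14. Each is written 5′ to 3′ on the strand of its gene, and capitals mark TTCTGGGA and CCGGAA or its reverse complement TTCCGG.
ZNF226: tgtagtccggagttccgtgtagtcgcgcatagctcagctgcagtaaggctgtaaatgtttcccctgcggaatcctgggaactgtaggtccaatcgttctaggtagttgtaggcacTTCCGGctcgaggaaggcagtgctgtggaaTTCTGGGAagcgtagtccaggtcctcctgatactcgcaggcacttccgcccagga
ZNF222: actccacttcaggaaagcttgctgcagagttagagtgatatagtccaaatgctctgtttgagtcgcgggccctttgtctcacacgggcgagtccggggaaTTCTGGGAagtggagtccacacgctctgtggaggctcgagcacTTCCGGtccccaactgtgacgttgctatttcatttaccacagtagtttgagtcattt
ZNF230: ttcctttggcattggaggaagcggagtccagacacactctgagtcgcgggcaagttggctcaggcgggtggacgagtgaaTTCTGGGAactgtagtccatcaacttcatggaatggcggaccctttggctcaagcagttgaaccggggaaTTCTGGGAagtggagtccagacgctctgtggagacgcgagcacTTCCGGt
ZNF224: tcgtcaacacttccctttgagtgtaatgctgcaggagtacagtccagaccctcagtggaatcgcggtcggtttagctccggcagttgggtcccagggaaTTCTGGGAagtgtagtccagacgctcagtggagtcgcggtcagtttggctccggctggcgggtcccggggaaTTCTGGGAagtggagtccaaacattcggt
ZNF225: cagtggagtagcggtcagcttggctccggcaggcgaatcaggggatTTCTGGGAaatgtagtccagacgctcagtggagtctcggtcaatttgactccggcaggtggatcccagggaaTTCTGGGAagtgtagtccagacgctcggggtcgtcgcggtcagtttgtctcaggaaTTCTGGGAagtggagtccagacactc
ZNF235: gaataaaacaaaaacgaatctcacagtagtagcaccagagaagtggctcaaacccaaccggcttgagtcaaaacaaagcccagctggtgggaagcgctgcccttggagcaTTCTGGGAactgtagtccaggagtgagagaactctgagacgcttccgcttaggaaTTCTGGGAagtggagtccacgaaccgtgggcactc
TTCTGGGA occurred 3 times in the sequence of ZNF225, 2 times in those of ZNF230, ZNF224 and ZNF235, and 1 time in those of ZNF226 and ZNF222. CCGGAA or its reverse complement occurred 1 time in each of ZNF226, ZNF222 and ZNF230 and was not among the printed letters of ZNF224, ZNF225 and ZNF235. These are matches of letters, not measured binding sites.

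**Figure D1:**
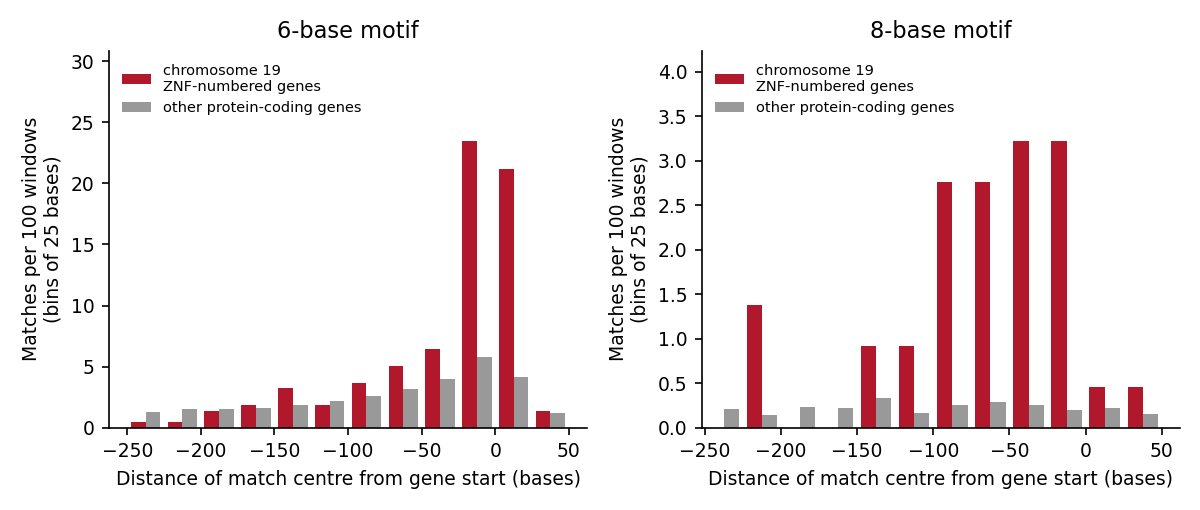
Matches per 100 promoter windows in bins of 25 bases, by the distance in bases of the match centre from the gene start, for the 6-base motif CCGGAA (left) and the 8-base motif TTCTGGGA (right). Bars show the 217 chromosome 19 ZNF-numbered genes (red) and 14679 other protein-coding genes (grey), and the red bars for CCGGAA stand highest in the bins next to the start, where 74.5% of the matches lie within 50 bases.

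The deposited values were read as FPKM, fragments scaled by transcript length and mapped total, and the depth behind them is unknown. A gene was called expressed, and tested, where it had 1 FPKM or more in at least 2 libraries. Of the 222 listed genes, 138 (62.2%) were expressed, 52 had values above 0 but did not reach that level, and 32 were listed at 0 in all 4 libraries. The share was 82.2% (199 of 242) for ZNF-numbered genes of other chromosomes, 71.0% (718 of 1011) for the other protein-coding genes of chromosome 19 and 71.3% for all protein-coding genes. Against all 249 annotated genes it was 55.4%, and 122 genes (55.0% of those listed) reached 1 FPKM in all 4 libraries.

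Most of the expressed genes had low levels. The median of their mean FPKM over the 4 libraries was 2.64, against 3.92 for the expressed ZNF-numbered genes of other chromosomes and 9.87 for other chromosome 19 genes. Of the 222, 45 had a mean of 1 to 2 FPKM, 61 of 2 to 5, 20 of 5 to 10 and 9 of 10 or more. Genes with the KRAB pattern were expressed in 111 of 188 cases (59.0%) and those without it in 27 of 34 (79.4%), and the median level of the expressed ones was 2.34 and 4.07 FPKM. Among the 7 groups with 10 or more genes, the expressed share ran from 32.0% (8 of 25) in group 9 (36.2 to 37.8 Mb) and 50% (12 of 24) in group 3 (11.5 to 12.6 Mb) to 75% (18 of 24) in group 12 and 86.7% (13 of 15) in group 2 (7.07 to 9.79 Mb). Groups 5 (19.7 to 24.1 Mb) and 9 each held 8 of the 32 genes listed at 0, among them ZNF93 and ZNF90 in group 5 and ZNF382 and ZNF568 in group 9. These 4 names were chosen after their values were seen. An exact 0 in a table without counts can also be a failed estimate.

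**Figure D2:**
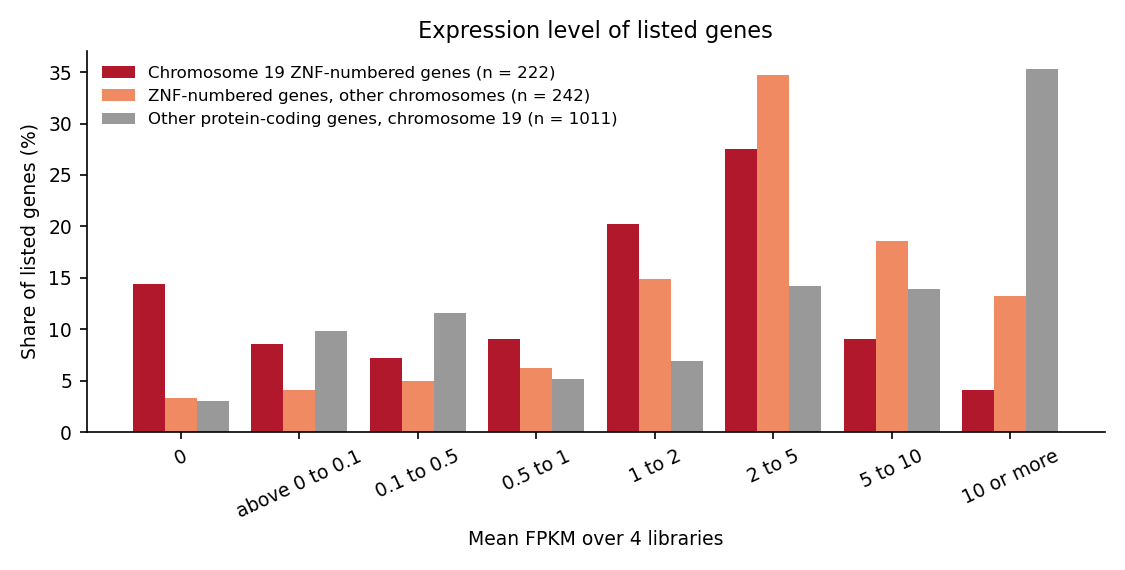
Share of listed genes (%, y axis) by mean FPKM over the 4 libraries (x axis) for chromosome 19 ZNF-numbered genes (n = 222), ZNF-numbered genes of other chromosomes (n = 242) and other protein-coding genes of chromosome 19 (n = 1011). The chromosome 19 ZNF-numbered genes have their tallest bar at 2 to 5 FPKM and 9 genes at 10 FPKM or more, while the other chromosome 19 genes have theirs at 10 or more.

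ZNF146, a zinc-finger gene without a KRAB box, had the highest level, with 40.4 and 41.9 FPKM in the shNC libraries and 41.5 and 42.1 in the shWDR43 libraries. ZNF121 followed with 33.9 and 24.4 against 26.3 and 28.6 FPKM, and ZNF160, a KRAB gene with 20 finger patterns, with 32.0 and 26.0 against 21.6 and 22.3. The groups overlapped for ZNF146 and ZNF121, and both shWDR43 libraries were below both shNC libraries for ZNF160. ZNF83 was at 22.1 and 19.9 against 22.7 and 24.2 FPKM, and ZNF558 at 13.6 and 13.8 against 13.5 and 13.6. ZNF544 was at 12.7 and 12.8 against 10.1 and 10.1 FPKM, with no overlap and SDs of 0.0366 and 0.0112 FPKM. In the order of levels ZNF146 stood above the other 5 in each library, the range of ZNF160 over the 4 libraries overlapped those of ZNF121 and ZNF83, and ZNF558 was above ZNF544 in each library. Exons of ZNF146 overlap those of ZNF565 on the opposite strand, and exons of ZNF544 overlap an antisense gene, so these values are uncertain where the counting did not use strand.

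The number of these genes at 1 FPKM or more was 139 and 136 in the shNC libraries (62.6% and 61.3% of those listed) and 125 and 131 in the shWDR43 libraries (56.3% and 59.0%). For ZNF-numbered genes of other chromosomes the shares were 80.6% and 82.2% against 81.0% and 81.0%. On chromosome 19, 6 genes reached 1 FPKM in both shNC libraries and in neither shWDR43 library, namely ZNF554, ZNF254, ZNF780B, ZNF614, ZNF547 and ZNF416, and 1 gene, ZNF419, did the opposite. These were 2.70% and 0.45% of the listed genes of the set, against 0.509% and 0.355% of all listed genes. The same shares were 0% and 1.24% for ZNF-numbered genes of other chromosomes. The 7 chromosome 19 genes passed the level filter through 1 group only. Most of them lay close to the line: ZNF547 was at 1.11 and 1.01 against 0.781 and 0.654 FPKM, ZNF554 at 1.19 and 1.03 against 0.856 and 0.992, and ZNF419 at 0.706 and 0.909 against 1.22 and 1.04. Just below it stood ZNF530 (0.736 and 0.635 against 0.928 and 0.866 FPKM), ZNF324B (0.699 and 0.599 against 0.873 and 0.925) and ZNF30 (0.835 and 0.914 against 0.884 and 1.06), which were not tested.

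The question of the comparison was how expression differed between cells with shWDR43 and cells with shNC. It was tested with limma on log2(FPKM + 1) over 13303 genes, with two-sided p-values adjusted by the Benjamini-Hochberg method over all of them and a threshold of 0.05. Differences in log2 are on this scale, on which low genes show less change than in a ratio of FPKM. Of the 138 tested genes, 1 was called higher in shWDR43 and 0 were called lower. Over all tested genes 4.79% were called higher and 1.47% lower. At an unadjusted limma p under 0.05, 3 were higher and 14 lower, where 17.8% and 8.63% of all tested genes were. The largest differences were −0.67 and 0.58, and none reached 1 in log2.

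The 138 genes were lower by a small amount at the median. The median log2 difference was −0.09 (quartiles −0.23 and 0.01), against 0.05 over all tested genes, 0.05 over the other protein-coding genes of chromosome 19 and −0.07 over the ZNF-numbered genes of other chromosomes. The ratio of mean FPKM had a median of 0.918. The difference was below 0 for 99 of the 138 (71.7%), where 42% of all tested genes and 63.3% of the ZNF-numbered genes of other chromosomes were below 0. Both shWDR43 libraries lay under both shNC libraries for 55 genes (39.9%) and over both for 14 (10.1%), against 21.5% and 35.8% of all tested genes. For the ZNF-numbered genes of other chromosomes these shares were 37.7% and 16.6%. The other 69 overlapped. These counts include 6 genes that passed the level filter only through shNC and 1 only through shWDR43, whose direction follows from that. The median SE of a gene's difference was 0.134, which is larger than the median difference. Among tested protein-coding genes outside the list with a mean under 5 FPKM, a range that holds 109 of the 138, the median was 0.05, and it was −0.10 for those 109 and −0.07 for the 29 with 5 FPKM or more.

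The summed FPKM of the listed chromosome 19 ZNF-numbered genes was 634 and 585 in the shNC libraries and 559 and 570 in the shWDR43 libraries. Both shWDR43 sums lay under both shNC sums, and the gap from 585 to 570 was smaller than that between the shNC libraries. The 13 mitochondrially encoded mRNAs, which are often read as a sign of RNA quality, held 26.8% and 25.5% of all FPKM in the shNC libraries and 24.6% and 23.9% in the shWDR43 libraries. Their part in the result was not tested. In a bulk library, fewer cells with a transcript and less of it per cell cannot be told apart. Of 10 epithelial markers 9 were listed and 6 were at 1 FPKM or more in every library, with EPCAM at 155 to 181 FPKM. Of 10 markers of leukocytes, fibroblasts and endothelium 7 were listed, and only COL1A1 reached that level, at 5.69 to 7.80. PTPRC, CD3E, COL1A2 and CDX1 had no value. The colon differentiation markers CEACAM5, KRT20 and VIL1 were under 0.5 FPKM in every library.

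The size of the difference depended on the shNC library it was taken from. Against shNC replicate 1 alone, the mean of the shWDR43 libraries had a median log2 difference of −0.15 and was lower for 101 of the 138 genes. Against shNC replicate 2 alone, the median was −0.06 and 87 genes were lower. Over all tested genes the medians were 0.04 and 0.06, and over the ZNF-numbered genes of other chromosomes −0.12 and −0.04. The difference was below 0 against each shNC library for 69 of the 138 genes. Its sign was opposite for 50 genes (36.2%), against 27.9% of all tested genes and 29.1% of the ZNF-numbered genes of other chromosomes. The 4 library pairs, which share libraries with each other, gave medians of −0.15 and −0.14 against shNC replicate 1 and of −0.08 and −0.03 against shNC replicate 2, for shWDR43 replicates 1 and 2 in that order.

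The shNC libraries also differed from each other. Replicate 1 was above replicate 2 for 86 of the 138 genes, with a median log2 difference of 0.06. For the ZNF-numbered genes of other chromosomes it was above for 118 of 199, also with a median of 0.06. In the set, the median size of the difference regardless of sign was 0.14 between the shNC libraries and 0.09 between the shWDR43 libraries. ZNF460 differed most, at 6.36 and 2.85 FPKM in shNC and 2.73 and 3.38 in shWDR43, so that shNC replicate 1 alone was high. ZNF577 had the same order, at 3.51 and 1.82 against 1.61 and 1.77 FPKM. ZNF524 went the other way, at 1.10 and 2.62 against 2.73 and 3.22 FPKM, with shNC replicate 1 alone low. ZNF177 (0.478 and 1.64 against 1.73 and 0.950 FPKM) and ZNF221 (2.15 and 1.08 against 1.37 and 1.91) overlapped between groups.

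**Figure D3:**
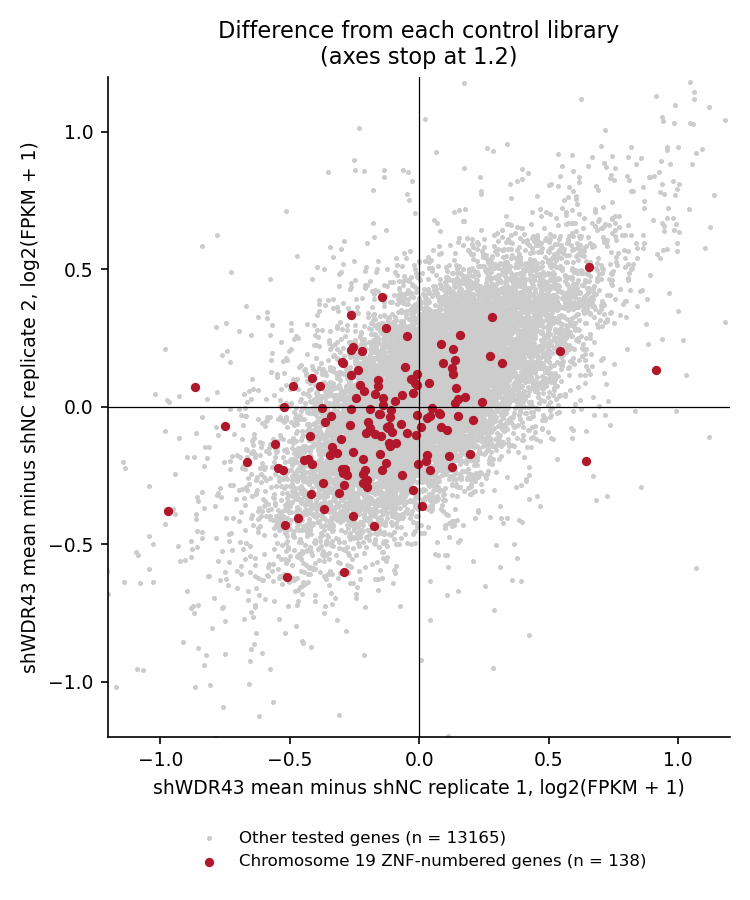
Difference between the mean of the shWDR43 libraries and shNC replicate 1 (x axis) or shNC replicate 2 (y axis), both in log2(FPKM + 1), for 138 chromosome 19 ZNF-numbered genes (red) and 13165 other tested genes (grey). The axes share the shWDR43 libraries, and 69 red points lie in the lower left part, where the difference is below 0 against each control. Genes beyond the axes are not drawn.

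With shNC replicate 2 left out, limma called 3 of 130 genes higher and 13 lower, where 13.8% and 6% of all tested genes were called. With shNC replicate 1 left out it called 1 of 131 higher and 2 lower, where 9.46% and 4.1% of all tested genes were. Without shWDR43 replicate 1 it called 1 of 135 higher and 0 lower, where 1.87% and 1.01% of all tested genes were, and without shWDR43 replicate 2 it called 0 of 136 higher and 1 lower, ZNF235, where 2.37% and 1.05% were. The lone remaining library of a group is assumed there to vary like the other group. ZNF226 was called higher with either shNC library left out. The genes called lower were ZNF114 and ZNF222 without shNC replicate 1, and neither was among the 13 without shNC replicate 2, which were ZNF121, ZNF160, ZNF235, ZNF264, ZNF358, ZNF460, ZNF544, ZNF577, ZNF587, ZNF616, ZNF808, ZNF814 and ZNF816. Of those 13, ZNF121, ZNF460, ZNF808 and ZNF816 had a difference above 0 against shNC replicate 2.

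ZNF226 (ENSG00000167380, chr19:44165073-44178381, plus strand, GENCODE 29) encodes a KRAB zinc-finger protein with 17 finger patterns. It was at 3.00 and 3.43 FPKM in the shNC libraries and at 4.92 and 5.70 in the shWDR43 libraries. Both shWDR43 libraries were above both shNC libraries, by more than either pair differed. The means were 3.22 ± 0.306 and 5.31 ± 0.550 FPKM (SD, n = 2 each), a ratio of 1.65. The log2 difference was 0.58 ± 0.12 (SE), with a limma adjusted p of 0.0351. The call was lost without shWDR43 replicate 2 (limma adjusted p = 0.153), with no level filter (0.132) and just so under median-ratio (0.0516) and upper-quartile scaling (0.0508), while the log2 difference stayed between 0.49 and 0.71 under all alternatives run except the filter at 5 FPKM, which left this gene out. No exon of ZNF226 overlapped another listed gene, and 4.46% of its 31-base words occurred in transcripts of any other GENCODE 29 gene.

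The genes next in order of p, named after their values were seen, were lower in shWDR43 and were not called. ZNF114, with a KRAB box and 3 finger patterns, was at 1.77 and 1.98 against 0.885 and 1.00 FPKM, and its log2 difference was −0.56 ± 0.14 (SE; limma adjusted p = 0.0543). ZNF358, without a KRAB box, was at 5.47 and 5.20 against 3.98 and 3.41 FPKM, a difference of −0.44 ± 0.11 (limma adjusted p = 0.0611). In both genes the groups did not overlap, and the distance between them exceeded the distance between replicates. ZNF544 and ZNF160, whose levels are given above, differed by −0.31 ± 0.09 and −0.38 ± 0.11 (limma adjusted p = 0.0715 and 0.0799). ZNF417 was at 1.92 and 1.74 against 0.931 and 1.15 FPKM (−0.47 ± 0.14, limma adjusted p = 0.083). In ZNF417, 49.7% of the 31-base words occurred in transcripts of other genes, whether in the set or not. Its reads and those of such genes could have been split by the counting. The other 2 genes higher at an unadjusted p under 0.05 were ZNF799, at 1.53 and 2.21 against 2.63 and 2.76 FPKM, and ZNF566, at 1.30 and 1.23 against 1.76 and 1.83. For ZNF799, 50.7% of the 31-base words occurred in transcripts of other genes, and its exons overlap AC008758.4 on the same strand, so its values are uncertain too.

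Along the chromosome the medians of the larger groups ran from 0.08 to −0.20 in log2. Group 3 had 5 of 12 tested genes below 0 and a median of 0.08. Groups 15 (51.6 to 53.6 Mb) and 16 had 20 of 23 and 28 of 36 genes below 0, with medians of −0.20 and −0.13, and groups 2, 5 and 9 had medians of −0.03, −0.06 and −0.04. Across the 138 genes the Spearman correlation of start position with log2 difference was −0.23 and the Pearson correlation −0.21. Genes are not independent replicates, all points share the same 4 libraries, and neighbours can share sequence and exons.

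**Figure D4:**
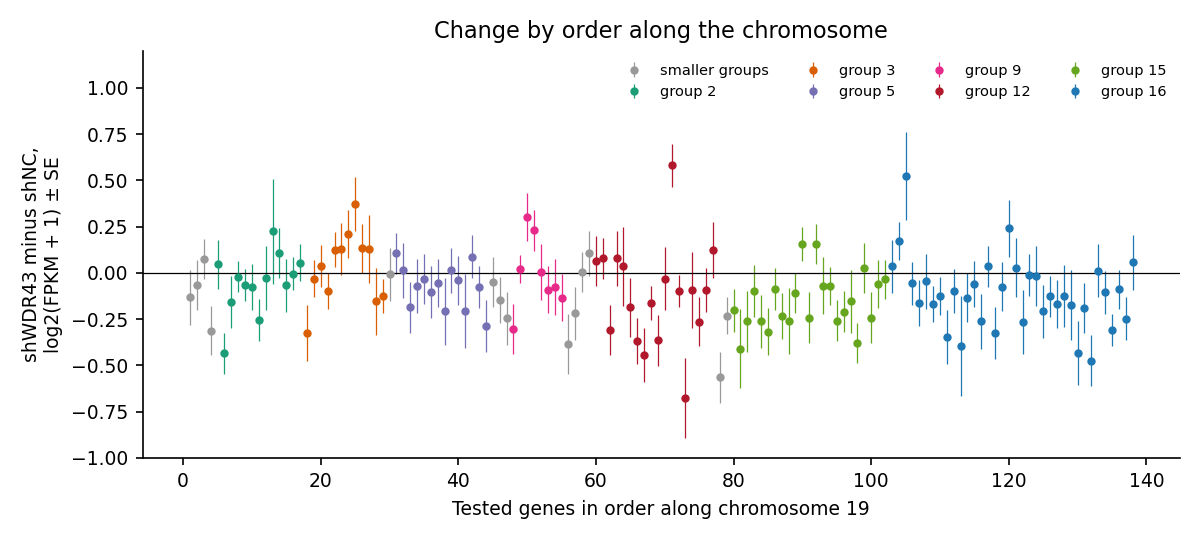
Difference between shWDR43 and shNC in log2(FPKM + 1) with its SE (y axis) for the 138 tested genes in order along chromosome 19 (x axis), coloured by positional group. The highest point is ZNF226 in group 12 at 0.58, and the lowest is ZNF235 in the same group at −0.67.

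Group 12 held both extremes. Of its 24 genes 18 were tested, 12 of them were below 0 with a median of −0.10, and the groups of libraries did not overlap for 12, with 10 lower and 2 higher in shWDR43, where 21.5% and 35.8% of all tested genes were. ZNF235 had 2.71 and 1.46 FPKM in the shNC libraries and 0.702 and 1.11 in the shWDR43 libraries, a difference of −0.67 ± 0.22 (SE; limma adjusted p = 0.102). ZNF222 was at 2.21 and 2.98 against 1.67 and 1.58 FPKM, and ZNF230 at 2.04 and 2.05 against 1.32 and 1.40. In all 3 of these genes both shWDR43 libraries were lower, and for ZNF235 and ZNF222 the shNC libraries lay further apart than the nearest values of the groups. ZNF225 was at 1.90 and 1.71 against 1.09 and 1.27 FPKM, and ZNF224 at 8.05 and 8.19 against 7.13 and 7.18. The limma differences were −0.44 ± 0.14 for ZNF222, −0.37 ± 0.13 for ZNF230, −0.37 ± 0.14 for ZNF225 and −0.16 for ZNF224, and the limma adjusted p-values were 0.104, 0.117, 0.141 and 0.302. Exons of ZNF235 overlap those of ZNF227 and ZNF233 on the opposite strand, and those of ZNF224 and ZNF225 overlap an antisense gene. How the counting treated strand is unknown here, so these values are uncertain.

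**Figure D5:**
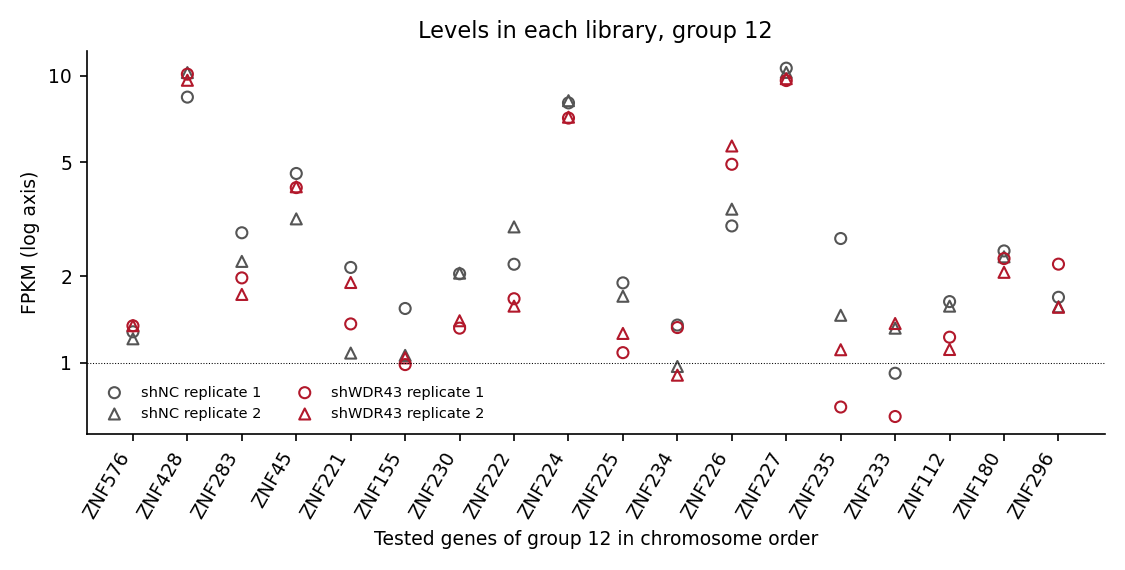
FPKM (log axis) of the 18 tested genes of group 12 in chromosome order, in each of the 2 shNC (grey) and 2 shWDR43 (red) libraries. The shWDR43 points of ZNF226 stand above its shNC points, 4.92 and 5.70 against 3.00 and 3.43, and those of ZNF222, ZNF230, ZNF225 and ZNF235 stand below theirs.

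The promoter motifs were set beside the differences as a description. The 16 tested genes with TTCTGGGA in the promoter window had a median log2 difference of −0.25, with 14 below 0, 12 lower and 1 higher without overlap between groups. The 104 without it had a median of −0.07, with 71 below 0, 35 lower and 11 higher without overlap. Over all tested genes 42% were below 0, 21.5% were lower and 35.8% higher without overlap. Since the motif was chosen from promoters of group 12 genes that had been picked for their differences, these values describe that choice and test nothing for group 12. ZNF226 is one of the 16 and is the 1 that was higher, with the motif printed above. Outside group 12, 5 genes with it (ZNF146, ZNF181, ZNF302, ZNF544 and ZNF565) had a median of −0.25 and 100 without it −0.08. Among protein-coding genes outside the set, 240 with the motif had a median of 0.02 and 8876 without it 0.06. Among ZNF-numbered genes of other chromosomes, 18 with it had −0.12 and 146 without it −0.07. With CCGGAA, 72 genes had a median of −0.12 and 48 without it −0.06, while among ZNF-numbered genes of other chromosomes 81 with it had −0.05 and 83 without it −0.10. ZNF143, whose protein is known to bind TTCTGGGA, was at 16.3 and 15.3 against 16.9 and 17.0 FPKM, and GABPA at 13.3 and 11.5 against 12.3 and 11.9. Neither was called (limma adjusted p = 0.496 and 0.86).

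The genes were also split by protein features. Genes with the KRAB pattern had a median log2 difference of −0.10 (84 of 111 below 0) and those without it −0.05 (15 of 27). Against shNC replicate 1 alone these medians were −0.17 and −0.02, and against shNC replicate 2 alone −0.07 and −0.03. Without overlap between groups, 49 genes with the pattern were lower and 10 higher. Of those without it, 6 were lower and 4 higher. Over all tested genes 21.5% were lower and 35.8% higher without overlap. Genes with 13 or more finger patterns had −0.08 and those with fewer −0.09. Genes whose exons overlap another listed gene had −0.09 over 67 genes and the others −0.09 over 71.

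KRAB zinc-finger proteins act through the TRIM28 corepressor and histone H3 lysine 9 methylation. A list of 37 genes linked to these was tested. It mixes roles, as it also holds the histone demethylases KDM4A, KDM4B, KDM4C and PHF8, and TRIM24 and TRIM33. In the list 1 gene was called higher and 1 lower, 22 were below 0 and the median log2 difference was −0.06. Over all tested genes 4.79% were called higher, 1.47% lower and 42% were below 0. UHRF1, which brings DNMT1 to newly copied DNA, rose from 12.8 and 13.5 FPKM to 18.2 and 19.4 (0.49 ± 0.09, limma adjusted p = 0.0301). ATRX, a chromatin remodeller that acts with DAXX, fell from 32.1 and 35.1 to 24.9 and 25 FPKM (−0.41 ± 0.08, limma adjusted p = 0.0351). Neither gene's groups overlapped, and both calls were lost when either shWDR43 library was left out, with limma adjusted p of 0.0523 and 0.13 for UHRF1 and of 0.166 and 0.142 for ATRX without replicates 1 and 2, while the log2 differences were 0.53 and 0.44 for UHRF1 and −0.41 and −0.42 for ATRX. TRIM28, itself on chromosome 19, was at 65.4 and 71.4 against 85.1 and 79.5 FPKM (0.26 ± 0.09, limma adjusted p = 0.112). SETDB1 was at 21.4 and 18.2 against 15.8 and 14.6 FPKM (−0.36 ± 0.10, limma adjusted p = 0.0775). Both shWDR43 libraries were above both shNC libraries for TRIM28 and below them for SETDB1, and neither passed the threshold. Without shNC replicate 2 both did, with limma adjusted p of 0.018 for TRIM28 and 0.0121 for SETDB1. With no level filter the limma adjusted p was 0.125 for UHRF1 and 0.132 for ATRX, and under median-ratio scaling it was 0.0517 for ATRX.

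The zinc-finger genes of chromosome 19 whose symbols fall outside the ZNF rule, such as MZF1, gave 7 tested genes of 9 listed. By limma 0 of the 7 were called in either direction, and 0 were higher and 2 lower at an unadjusted p under 0.05. Over all tested genes 17.8% were higher and 8.63% lower at that limit. The median log2 difference of the 7 was −0.18 with 6 below 0, where all tested genes had a median of 0.05 with 42% below 0.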

How the data were processed

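RNA-seq was measured in 4 HCT116 libraries, 2 per group. The authors deposited 1 value per gene and library. The deposited values were taken to be FPKM, judged by their range and sums, although TPM for a subset of genes is possible. Per the labels' protocols, 1 ug of total RNA went into each TruSeq library. Per the submitters' processing notes, the tools were HISAT2, RSEM, edgeR, Trimmomatic, FastQC and CASAVA 1.8, on GRCh38. Their roles, the strand setting and the annotation release were not given in the sources used here.

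Tables were joined by Ensembl identifier, and 1 blank entry was left out. Symbols, positions and coding sequences came from GENCODE 29, and promoter windows from RefSeq. The genes studied, the lists and the tests were chosen with earlier results of these data known. Genes with 1 FPKM or more in at least 2 libraries were tested with limma 3.58.1 (R 4.3.3, empirical Bayes with trend and robust settings, group as the only term, 2 residual degrees of freedom) on log2(FPKM + 1). The deposited values were not rescaled. An exact permutation test of 1 gene could not go below p = 0.333, so it was not used. No whole-read steps were found in the low values: no 1% window of ratios between libraries held over 0.958% of the genes, so the depth is unknown and no interval that needs counts is given. Simulated data for 13303 genes had 200 genes changed 1.5-fold or 2-fold in FPKM + 1, which is a larger fold in FPKM at low levels. Of these, 36.8% and 90% were recovered, with 4.66% of calls false. The rates cover genes of all levels and were not taken for the set alone. Its median SE was larger, 0.134 against 0.111 over all tested genes. Library sums ran from 393582 to 413758 FPKM.

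The KRAB A pattern was loosened after proteins of the set had been read. Named genes were those called (up to 8 per direction), the 6 with the highest level, the 5 whose shNC libraries differ most, the 3 on each side of 1 FPKM, TRIM28, SETDB1 and called genes of the lists. Others are marked as chosen after their values were seen, which also holds for the genes of group 12. Alternatives were another pseudocount, other level filters, 2 scalings, robust settings off, a replicate block, no read-through names and leaving out each library.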

Additional observations from a re-analysis of the deposited data

How the results depend on the processing

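The median log2 difference of the chromosome 19 ZNF-numbered genes was below 0 under every alternative run, from −0.14 (upper-quartile scaling) to −0.05 (without shNC replicate 1). The count called higher was 0 with no level filter, 0 with a filter at 5 FPKM, 0 under median-ratio and 0 under upper-quartile scaling. It ran from 0 to 3 when 1 library was left out, and the count called lower from 0 to 13. The filter at 5 FPKM left 32 genes and called 1 lower, ZNF358, where 787 of all 8428 genes tested under that filter were called higher and 244 lower. Over all genes, 637 higher and 196 lower calls became 310 and 140 under median-ratio and 327 and 287 under upper-quartile scaling, 15 and 2 with no filter, and 413 and 150 with a replicate block. The block on replicate number gave 1 higher and 0 lower call in the set, and ATRX was not called under it (limma adjusted p = 0.059). Same-numbered libraries did not deviate together (correlation of deviations −0.15 over all tested genes, −0.27 over the set). With 2 libraries per group this cannot show whether the numbers mark pairs. A block with the numbers crossed, added after seeing the data, gave 1 higher and 5 lower calls, and 1375 and 579 over all genes. The expressed share was 70.7% at 0.5 FPKM, 14.4% at 5 FPKM, 55.0% in all 4 libraries and 55.4% of annotated genes.

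Signs turned for 5 of the genes named by the rule above, none of them called with all 4 libraries. ZNF808 and ZNF816, outside that rule, also turned. Their log2 differences were −0.261 and −0.155 with all 4 libraries, and 0.000507 and 0.105 without shNC replicate 1. With 1 library left out, the log2 difference ran from −0.296 to 0.16 for ZNF121, from −0.864 to 0.0716 for ZNF460, from −0.00484 to 0.048 for ZNF146 and from −0.265 to 0.333 for ZNF221. For ZNF177, which passed the level filter in only 2 of these fits, it was −0.196 without shNC replicate 1 and 0.467 without shWDR43 replicate 2. Under upper-quartile scaling it was −0.0481 for ZNF146 and −0.00937 for ZNF221, and under median-ratio scaling −0.00164 for ZNF146. The cause was not tested. With 2 libraries per group and unknown depth, differences of the size of the median SE could not be told from replicate spread.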
